A study of Homo sapiens with 8 samples.

Results

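The DNA replication machinery was followed here through 46 genes in CUTLL1, a human T-lineage cancer line with active NOTCH1. The genes were taken by name, not by their values, and cover origin recognition, helicase loading, the replicative helicase, the polymerases, the sliding clamp and its loader, single-strand binding, Okazaki fragment processing and ribonucleotide reductase. All 46 were on the array, out of 19775 genes tested, and each was read from its brightest probe set, by the mean of all 8 arrays. There were 4 groups of 2 arrays, all of the same line and all harvested at 48 h: PF-03084014 with dexamethasone at 1 microM each (the combination), PF-03084014 alone at 1 microM, dexamethasone alone at 1 microM, and DMSO vehicle. PF-03084014 inhibits gamma-secretase, the protease that releases the active part of NOTCH, and dexamethasone is a synthetic glucocorticoid. The labels name a first and a second replica of each treatment and do not say whether they were separate cultures, so p-values measure the spread between arrays, which may be technical. The results describe 1 cell line at 1 time and 1 dose of each compound.

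DNA replication starts in G1, when the origin recognition complex, CDC6 and CDT1 load the ring-shaped MCM helicase onto origins, a step called licensing. Kinases including CDC7 with DBF4 then fire the origin, and CDC45 and the GINS complex join the MCM ring to form the active helicase. Polymerase alpha with primase starts each strand, polymerases epsilon and delta extend it while held by the clamp PCNA, and FEN1 and LIG1 finish the Okazaki fragments of the lagging strand. Many of these genes are known targets of the E2F transcription factors, which act as cells enter S phase. RNA of a whole culture was measured, so fewer cells in S phase and less RNA in each cell cannot be told apart.

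Promoters of 5 members are shown because they span the range of response described further on. MCM6 held the most matches to the E2F motif among the promoters shown, GINS2 and CDC6 were among the largest falls, POLD1 fell most and had no match, and PCNA, with the brightest probe set of all members, had a match and was not called. Sequences are RefSeq promoters of GRCh38.p14, 250 bases before to 50 bases after the gene start, on the gene's own strand. Capitals mark matches to TTTGGCGC, TTTCGCGC, TTTCCCGC or TTTGCCGC on either strand, with overlapping matches counted separately and drawn as 1 stretch.
MCM6 (chr2:135876394-135876693, minus strand): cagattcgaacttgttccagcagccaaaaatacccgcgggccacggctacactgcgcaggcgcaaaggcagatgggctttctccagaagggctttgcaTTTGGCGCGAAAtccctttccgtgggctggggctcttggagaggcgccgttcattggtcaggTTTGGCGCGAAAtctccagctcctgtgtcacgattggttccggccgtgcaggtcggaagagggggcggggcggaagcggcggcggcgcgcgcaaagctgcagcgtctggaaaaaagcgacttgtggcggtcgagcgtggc
GINS2 (chr16:85688905-85689204, minus strand): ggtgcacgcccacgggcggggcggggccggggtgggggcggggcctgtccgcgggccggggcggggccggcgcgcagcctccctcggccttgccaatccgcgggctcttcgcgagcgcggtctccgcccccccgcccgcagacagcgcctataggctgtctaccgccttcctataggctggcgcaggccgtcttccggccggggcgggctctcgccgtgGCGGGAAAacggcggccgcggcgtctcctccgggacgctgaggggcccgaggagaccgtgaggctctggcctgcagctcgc
CDC6 (chr17:40287629-40287928, plus strand): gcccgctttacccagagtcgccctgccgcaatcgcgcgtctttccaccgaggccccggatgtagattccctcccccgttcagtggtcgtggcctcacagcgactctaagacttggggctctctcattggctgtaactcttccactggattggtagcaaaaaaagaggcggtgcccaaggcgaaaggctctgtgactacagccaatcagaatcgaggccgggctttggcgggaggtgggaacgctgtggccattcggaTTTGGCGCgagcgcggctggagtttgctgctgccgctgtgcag
POLD1 (chr19:50384073-50384372, plus strand): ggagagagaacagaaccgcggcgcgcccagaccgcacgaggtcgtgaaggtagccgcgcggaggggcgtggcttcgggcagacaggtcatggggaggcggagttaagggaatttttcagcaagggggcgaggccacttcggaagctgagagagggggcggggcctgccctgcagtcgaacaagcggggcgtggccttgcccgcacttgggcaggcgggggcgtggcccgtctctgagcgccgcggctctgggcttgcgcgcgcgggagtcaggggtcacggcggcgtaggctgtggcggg
PCNA (chr20:5126573-5126872, minus strand): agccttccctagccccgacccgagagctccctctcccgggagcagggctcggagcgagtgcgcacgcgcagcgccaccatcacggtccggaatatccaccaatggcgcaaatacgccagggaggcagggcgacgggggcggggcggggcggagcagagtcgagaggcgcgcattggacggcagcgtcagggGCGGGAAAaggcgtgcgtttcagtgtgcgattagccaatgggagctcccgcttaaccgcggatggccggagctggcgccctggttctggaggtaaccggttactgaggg

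Counted from the gene start, the MCM6 matches began at -152, -148, -90 and -86, the GINS2 match at -31, the PCNA match at -59 and the CDC6 match at 8. A promoter entry was found for 40 members, and MCM4, MCM5, GINS4, POLD3, RPA2 and RPA3 were without one. At least 1 E2F match lay in 17 of the 40 promoters (42.5%), against 671 of 15384 promoters of genes on the array (4.36%) and 908 of all 27305 promoters in the table (3.33%). The 40 promoters held 23 matches, and 13 of them began within the 100 bases before the start. The motif CCAAT, on either strand, lay in 57.5% of the members' promoters and in 36.1% of those of array genes. Of the 23 E2F matches, 1 overlapped a CCAAT match. Median GC content was 65.3% in the members' promoters and 63% in those of array genes. These matches describe letters in a fixed window and are not binding sites.

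Array medians lay between 61.8 and 63.9 intensity units, except for 76.3 on the second combination array, and 43.9% of the probe sets of that array exceeded 100, against 40.4% to 41% on the other arrays. The second combination array therefore stands apart, and counts of calls that involve the combination are given with and without it. The known responders moved with the labels. HES1, a NOTCH target, fell with PF-03084014 (-1.74 ± 0.15 log2 units, adjusted p = 0.0202, limma), and TSC22D3, a glucocorticoid target, rose with dexamethasone (3.34 ± 0.082, adjusted p = 0.00143). All 13 T-lineage markers measured exceeded 100 on every array. Most markers of other lineages stayed under 100 on all arrays. This held for 3 of 5 B-lineage, 4 of 6 myeloid, 3 of 4 erythroid and megakaryocyte, and 4 of 7 epithelial and stromal genes. The epithelial and stromal list still summed to 8837 to 10570 over the arrays, nearly all of it VIM, at 8235 to 10172. The summed B-lineage markers were 668 to 819 on the combination arrays, 584 to 605 with PF-03084014, 632 to 652 with dexamethasone and 497 to 539 with DMSO. The summed myeloid markers were 349 to 420 on the combination arrays, 504 to 575 with PF-03084014, 441 to 483 with dexamethasone and 545 to 611 with DMSO. A single gene made most of each difference between the combination and DMSO: CD79A read 504 and 585 with the combination and 297 and 299.9 with DMSO, and ITGAM 112 and 102 with the combination and 329.7 and 372 with DMSO. The part of these shifts in the results was not tested.

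The first question was what the 2 compounds together did to replication genes. With the combination, 27 of the 46 members fell against DMSO, which is 58.7% of them, and the share of all genes that fell was 5.54%. None of the 46 rose, while 6.43% of all genes did. Negative differences were found for 45 members (97.8%), against 41.1% of all genes. POLD1, ORC1 and GINS2 fell most, each to about the 50% level of DMSO (51.9%, 49.8% and 48.9% lower). POLD1 is the catalytic subunit of polymerase delta, ORC1 an ATP-binding subunit of the origin recognition complex, and GINS2 a helicase subunit. Across the 46 members the median log2 difference was -0.46, which is 27.4% lower, and over all 19775 genes it was 0.06. Both combination arrays lay below all 6 other arrays for 40 of the 46 members (87%), against 10.8% of all genes, and none had both above all 6, against 13.8%. Both lay below both DMSO arrays for 44 members (95.7%), against 21.5% of all genes, and above them for none, against 29.1%. For ORC5, CDT1, POLE3, RFC1, RPA1 and RPA2 the combination overlapped the other arrays. A call means a Benjamini-Hochberg adjusted p under 0.05 over all genes in limma, two-sided, and each log2 difference is given ± its standard error. Counts with an array outside the combination left out, or with only the groups compared fitted, have no share of all genes beside them. A general loss of calls is not separated there from a loss particular to the members. Without the second combination array 28 members fell, against 5.08% of all genes, and the median was -0.43, without the second DMSO array 15 fell, and in a fit of only the 4 arrays compared none did. Of the 27, 15 were called whichever single array was left out, and 12 were not: MCM3, MCM5, MCM6, GINS2, GINS4, CDC7, POLA2, PRIM1, POLD1, POLD2, RFC4 and RRM2 each lost the call without at least 1 of the DMSO arrays.

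**Figure D1:**
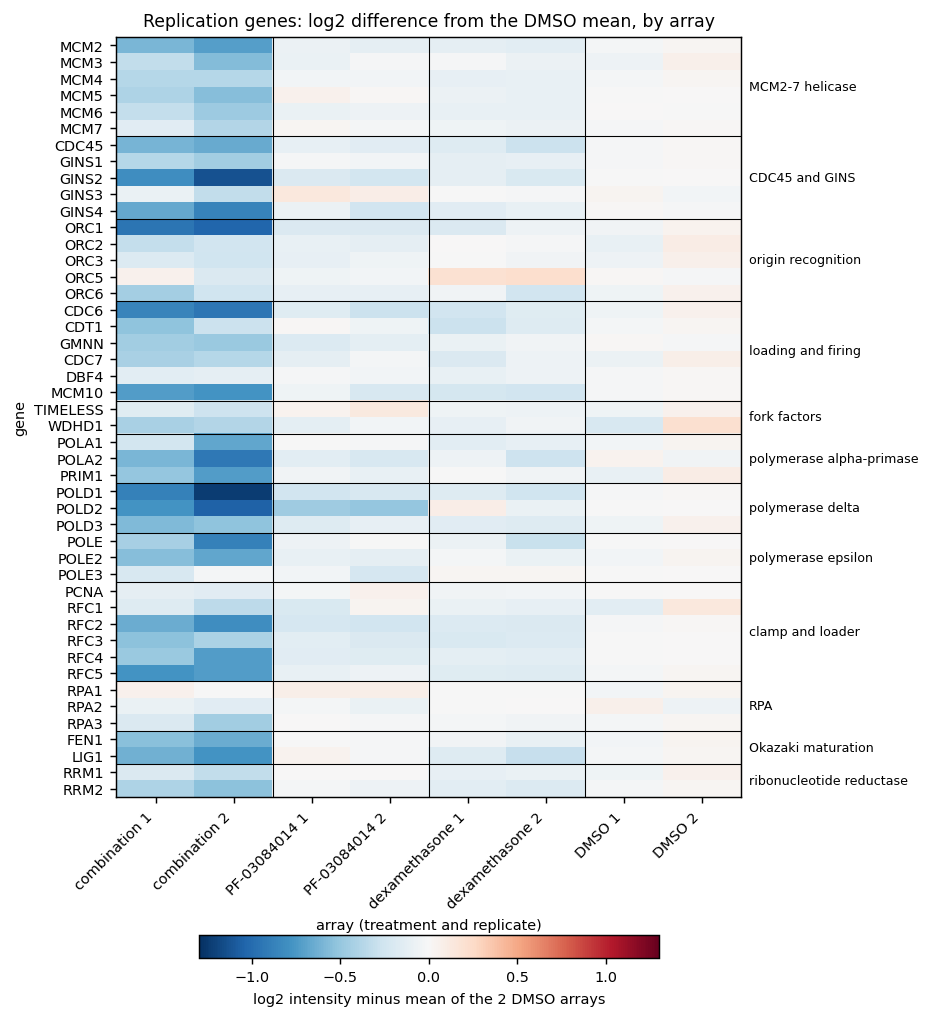
Heat map of the 46 members in rows, ordered by role, and the 8 arrays in columns, coloured by log2 difference from the mean of the 2 DMSO arrays. Both combination columns are darker than all others in most rows, with member medians of -0.43 and -0.50, while the PF-03084014 and dexamethasone columns have medians between -0.065 and -0.098.

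Among the 5 origin recognition genes, ORC1 fell and ORC2, ORC3, ORC5 and ORC6 did not pass the test. ORC1 read 497 and 469.9 in the combination arrays, 843 and 845 with PF-03084014, 847 and 917 with dexamethasone and 929.5 and 996 with DMSO. The combination arrays were at about the 50% level of DMSO and well below the single compounds, whose arrays lay just under DMSO. The difference of ORC1 between the combination and DMSO was -0.99 ± 0.065 (adjusted p = 0.00325). ORC6, which is needed for helicase loading and had the brightest probe set of this group, read 3341 and 3775 in the combination arrays, 4210.5 and 4215 with PF-03084014, 4377 and 3813 with dexamethasone and 4362 and 4694 with DMSO. Its combination arrays were the 2 lowest, but the difference of -0.35 ± 0.092 had an adjusted p of 0.0732. ORC5 read 1399.6 and 1184 in the combination arrays, 1297 and 1315 with PF-03084014, 1549.7 and 1573 with dexamethasone and 1367 and 1330 with DMSO, so that dexamethasone alone gave its highest values and the combination overlapped DMSO.

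Of the 6 genes for helicase loading, its control and origin firing, 4 fell: CDC6, MCM10, GMNN and CDC7. CDC6, the ATPase that brings the MCM ring to the origin, read 709 and 669 in the combination arrays, 1151 and 1058 with PF-03084014, 1082 and 1149 with dexamethasone and 1233 and 1334 with DMSO. Its single-compound arrays lay slightly under DMSO, and its combination arrays lay far under all others. MCM10, which helps activate the loaded helicase, read 1026 and 988 in the combination arrays, 1627 and 1463 with PF-03084014, 1440.4 and 1424 with dexamethasone and 1671 and 1714 with DMSO. GMNN encodes geminin, the inhibitor of CDT1 that prevents a second round of licensing, and read 4802 and 4695 in the combination arrays, 5812 and 6031 with PF-03084014, 6212 and 6387 with dexamethasone and 6644 and 6522 with DMSO. For both MCM10 and GMNN the combination arrays were the lowest and the DMSO arrays the highest. The differences between the combination and DMSO were -0.90 ± 0.071 for CDC6 (adjusted p = 0.00392), -0.75 ± 0.060 for MCM10 (adjusted p = 0.00392) and -0.47 ± 0.037 for GMNN (adjusted p = 0.00388). CDC7, the origin-firing kinase, fell by 0.40 log2 units (adjusted p = 0.0309), a call lost whichever array was left out (adjusted p up to 0.116). Its regulatory subunit DBF4 differed by -0.12 ± 0.032 (adjusted p = 0.0704) and was not called. CDT1, the loading factor, differed by -0.40 ± 0.091 and just missed the threshold (adjusted p = 0.0513).

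Of the 6 subunits of the MCM ring, 5 fell, with a median difference of -0.42 over the 6. MCM2 read 3550.4 and 3268 in the combination arrays, 5070.2 and 4938 with PF-03084014, 4935 and 4865 with dexamethasone and 5264 and 5456 with DMSO. MCM5 read 4239 and 3820.4 in the combination arrays, 5819.7 and 5683 with PF-03084014, 5335 and 5269 with dexamethasone and 5599 and 5629 with DMSO. MCM6, with the brightest probe set of the ring, read 7631 and 6820.1 in the combination arrays, 8902 and 9019.9 with PF-03084014, 8885 and 8832 with dexamethasone and 9470.4 and 9464 with DMSO. In all 3 genes both combination arrays lay under every other array, and the PF-03084014 and dexamethasone arrays stood close to DMSO. MCM3 read 4058 and 3424 in the combination arrays, 4762 and 5009 with PF-03084014, 5025 and 4795 with dexamethasone and 4823 and 5312 with DMSO. MCM4 read 4479 and 4470.4 in the combination arrays, 5648 and 5671 with PF-03084014, 5379 and 5424 with dexamethasone and 5691 and 5909 with DMSO. The combination arrays of MCM3 lay further apart than those of MCM4, whose 2 values were almost equal. The log2 differences were -0.65 ± 0.050 for MCM2 (adjusted p = 0.00383), -0.48 ± 0.055 for MCM5 (adjusted p = 0.00847), -0.44 ± 0.096 for MCM3 (adjusted p = 0.0437), -0.39 ± 0.058 for MCM6 (adjusted p = 0.0161) and -0.37 ± 0.033 for MCM4 (adjusted p = 0.00458). MCM7, the last subunit of the ring, differed by -0.26 ± 0.080 and was not called (adjusted p = 0.101). With 1 array left out, the highest adjusted p was 0.0541 for MCM5, 0.0846 for MCM6 and 0.184 for MCM3, and it was 0.0300 for MCM2 and 0.0329 for MCM4. The MCM6 promoter shown above has a pair of E2F stretches. The promoters shown were chosen by hand, and a relation between matches and the size of a fall was not tested.

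The partners that turn the ring into an active helicase had a median difference of -0.63 over CDC45 and the 4 GINS genes, and 4 of the 5 fell. GINS2 read 2169.5 and 1727 in the combination arrays, 3324 and 3207 with PF-03084014, 3496 and 3304 with dexamethasone and 3771 and 3805 with DMSO. CDC45 read 1746 and 1687 in the combination arrays, 2462 and 2394 with PF-03084014, 2359 and 2184 with dexamethasone and 2631 and 2675 with DMSO. GINS4 read 355 and 307 in the combination arrays, 534 and 472 with PF-03084014, 507 and 524 with dexamethasone and 567 and 557 with DMSO. All 3 had their combination arrays far under the other 6, and within the combination the second array was the lower one. GINS1 read 4801 and 4536 in the combination arrays, 6167 and 6078 with PF-03084014, 5760.1 and 5769.9 with dexamethasone and 6146 and 6303 with DMSO, with its PF-03084014 arrays close to DMSO. The differences were -0.97 ± 0.11 for GINS2 (adjusted p = 0.00800), -0.77 ± 0.10 for GINS4 (adjusted p = 0.0116), -0.63 ± 0.049 for CDC45 (adjusted p = 0.00388) and -0.42 ± 0.040 for GINS1 (adjusted p = 0.00554). With 1 array left out the adjusted p reached 0.0526 for GINS2 and 0.0681 for GINS4. GINS3 differed by -0.20 ± 0.082 and was not called (adjusted p = 0.182). Neither fork factor was called. TIMELESS, a fork protection protein, read 2907 and 2694 in the combination arrays, 3337 and 3541 with PF-03084014, 3107 and 3093 with dexamethasone and 3106 and 3377 with DMSO, so its highest single value was on a PF-03084014 array. WDHD1, the adaptor between the helicase and polymerase alpha, differed by -0.40 ± 0.14 (adjusted p = 0.132). Its dimmer probe sets gave larger falls, as given further on.

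Polymerase delta was the subcomplex with the largest median difference, -0.91 or 46.9% lower, and all 3 of its genes fell. POLD1 read 792 and 619 in the combination arrays, 1225 and 1261 with PF-03084014, 1292 and 1213 with dexamethasone and 1443 and 1466 with DMSO. POLD2, the subunit that joins the catalytic core to the accessory subunits, read 1610.1 and 1329 in the combination arrays, 1996 and 1947 with PF-03084014, 2922 and 2599 with dexamethasone and 2749 and 2764 with DMSO. POLD3, an accessory subunit, read 1134 and 1177 in the combination arrays, 1508 and 1574 with PF-03084014, 1523 and 1508 with dexamethasone and 1628 and 1754 with DMSO. POLD2 differed from its partners in pattern, since its dexamethasone arrays overlapped DMSO while its PF-03084014 arrays lay well below both. The differences between the combination and DMSO were -1.06 ± 0.12 for POLD1 (adjusted p = 0.00795), -0.91 ± 0.10 for POLD2 (adjusted p = 0.00829) and -0.55 ± 0.051 for POLD3 (adjusted p = 0.00542). With 1 array left out the adjusted p reached 0.0525 for POLD1, 0.0537 for POLD2 and 0.0317 for POLD3. A second, dimmer POLD3 probe set went the other way, as given further on.

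In polymerase alpha-primase, POLA2 and PRIM1 fell and POLA1 did not pass the test. POLA2, the regulatory subunit, read 760.1 and 602 in the combination arrays, 1039 and 988 with PF-03084014, 1095 and 951 with dexamethasone and 1182 and 1107 with DMSO. PRIM1, the catalytic primase, read 1539 and 1318 in the combination arrays, 2116 and 2043 with PF-03084014, 2177 and 2123 with dexamethasone and 2049 and 2335 with DMSO. Their combination arrays were the 2 lowest of the 8, with differences of -0.76 ± 0.13 (adjusted p = 0.0241) and -0.62 ± 0.096 (adjusted p = 0.0180). With 1 array left out these reached 0.119 and 0.0807. POLA1, the catalytic subunit, differed by -0.46 ± 0.14 (adjusted p = 0.103). In polymerase epsilon, only POLE2 of the 3 genes was called. POLE2 read 1804 and 1657 in the combination arrays, 2476 and 2448 with PF-03084014, 2610.2 and 2493 with dexamethasone and 2590.4 and 2714 with DMSO, a difference of -0.62 ± 0.055 (adjusted p = 0.00483), and its adjusted p reached 0.0366 with 1 array left out. The catalytic subunit POLE had a difference of similar size, -0.65 ± 0.16, with a wider error (adjusted p = 0.0629). POLE3, a histone-fold subunit also found in a chromatin remodelling complex, read 3122 and 3553 in the combination arrays, 3518 and 3092 with PF-03084014, 3659.6 and 3665 with dexamethasone and 3602 and 3613 with DMSO, and its groups overlapped.

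**Figure D2:**
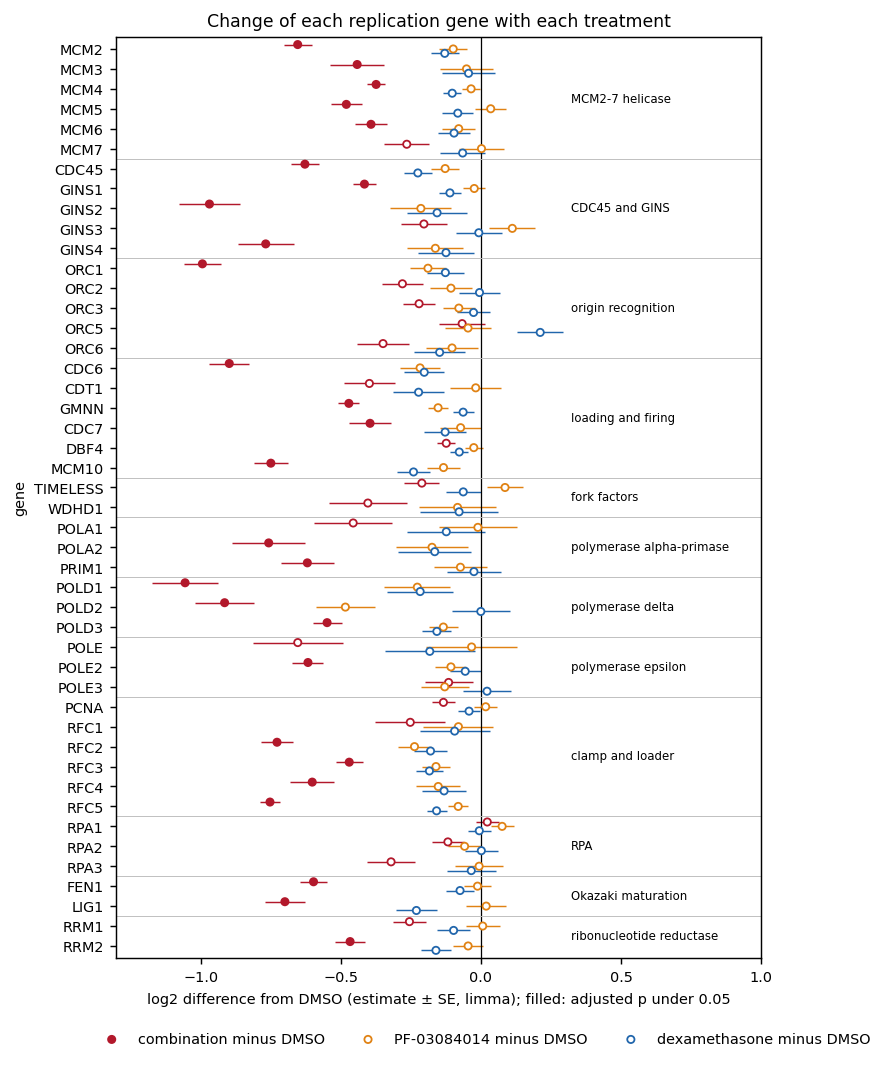
Log2 difference from DMSO on the x axis for each of the 46 members, grouped by role, with bars of 1 standard error for the combination, PF-03084014 and dexamethasone. Filled points are called, and all 27 of them belong to the combination, from -1.06 for POLD1 to -0.37 for MCM4.

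The clamp and its loader did not move alike. PCNA, the clamp, read 11906 and 11688 in the combination arrays, 12732 and 13470 with PF-03084014, 12531 and 12606 with dexamethasone and 12940 and 12945 with DMSO, and it differed by -0.13 ± 0.041 (adjusted p = 0.102). Its combination arrays were the lowest of the 8, at 8.86% under DMSO on average, and intensities of this size are among the highest on the arrays, where the largest values were 18406 to 19915. The small loader subunits RFC2, RFC3, RFC4 and RFC5 all fell. RFC5 read 1850.5 and 1912 in the combination arrays, 2967 and 3024 with PF-03084014, 2850 and 2829 with dexamethasone and 3116 and 3222 with DMSO. RFC2 read 1615 and 1449 in the combination arrays, 2174 and 2124 with PF-03084014, 2241 and 2231 with dexamethasone and 2499 and 2566 with DMSO. RFC5 had the smallest adjusted p of the 46 (-0.75 ± 0.036, adjusted p = 0.00200), and RFC2 differed by -0.73 ± 0.058 (adjusted p = 0.00392). RFC4 read 4055 and 3432 in the combination arrays, 5096 and 5091 with PF-03084014, 5198 and 5138 with dexamethasone and 5622 and 5700.5 with DMSO. RFC3 read 2760.3 and 2998 in the combination arrays, 3622 and 3509 with PF-03084014, 3483 and 3533 with dexamethasone and 3960.4 and 4008 with DMSO. For each of these 4 genes the combination arrays were the lowest and the DMSO arrays the highest. RFC4 and RFC3 had differences of -0.60 ± 0.079 (adjusted p = 0.0119) and -0.47 ± 0.048 (adjusted p = 0.00655). With 1 array left out the adjusted p of RFC4 reached 0.0719 and that of RFC5 0.0180. RFC1, the large subunit, differed by -0.25 ± 0.12 and was not called (adjusted p = 0.257).

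The single-strand binding complex RPA, which also acts in DNA repair, had none of its 3 genes called. RPA1, the large DNA-binding subunit, read 5886 and 5629.9 in the combination arrays, 5962 and 5982 with PF-03084014, 5628 and 5659 with dexamethasone and 5523 and 5815 with DMSO, and the groups overlapped. It was the 1 member of 46 with a positive difference, 0.023 ± 0.041 (adjusted p = 0.766), a value whose sign depends on the scaling and turned to -0.11 with all arrays shifted to 1 median. RPA3, the smallest subunit, with the brightest probe set of the 3, read 6638 and 5551 in the combination arrays, 7613 and 7480.3 with PF-03084014, 7463 and 7341 with dexamethasone and 7428 and 7736 with DMSO. The combination arrays of RPA3 were the 2 lowest, with a difference of -0.32 ± 0.086 (adjusted p = 0.0784). RPA2 differed by -0.12 ± 0.058 (adjusted p = 0.251).

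Both genes of Okazaki fragment maturation fell. FEN1, the flap nuclease, read 3560.5 and 3313 in the combination arrays, 5174 and 5130.2 with PF-03084014, 5019 and 4849.7 with dexamethasone and 5074 and 5319 with DMSO. LIG1, the ligase that seals the nicks, read 1035 and 934 in the combination arrays, 1651 and 1584 with PF-03084014, 1424 and 1301 with dexamethasone and 1568 and 1625 with DMSO. FEN1 overlapped DMSO with PF-03084014 alone, lay just under it with dexamethasone, and differed by -0.60 ± 0.050 with the combination (adjusted p = 0.00411). LIG1 differed by -0.70 ± 0.072 (adjusted p = 0.00652). Ribonucleotide reductase makes the deoxyribonucleotides used for synthesis. Its S-phase subunit RRM2 read 7507 and 6868 in the combination arrays, 9726 and 9501 with PF-03084014, 8993 and 8764 with dexamethasone and 9780.1 and 10068 with DMSO, and it fell by 0.47 log2 units (adjusted p = 0.00826). Without 1 array the adjusted p of RRM2 reached 0.0544. The large subunit RRM1 read 8453 and 7698 in the combination arrays, 9652 and 9685 with PF-03084014, 8959 and 9036 with dexamethasone and 9284 and 9981 with DMSO, and it just missed the threshold (-0.26 ± 0.060, adjusted p = 0.0548).

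**Figure D3:**
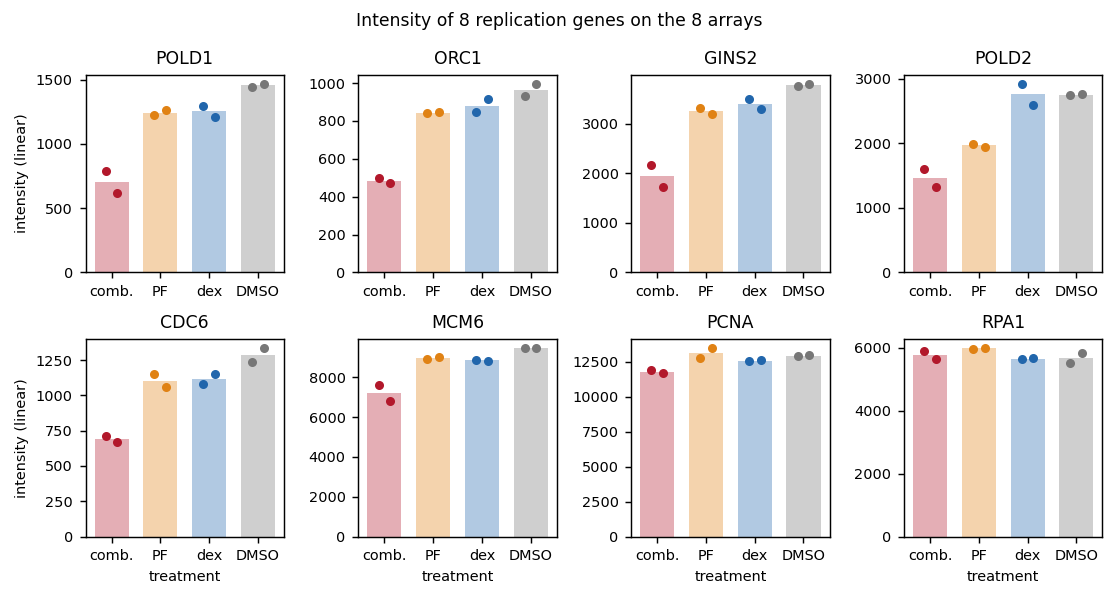
Intensity on a linear axis from 0 for POLD1, ORC1, GINS2, POLD2, CDC6, MCM6, PCNA and RPA1, with bars for the mean of 2 arrays and points for each array, in the order combination, PF-03084014, dexamethasone, DMSO. The combination points of POLD1 (792 and 619) and ORC1 (497 and 469.9) lie far under the DMSO points (1443 and 1466 for POLD1, 929.5 and 996 for ORC1), while those of RPA1 overlap DMSO.

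The next question was what each compound did alone. With PF-03084014, none of the 46 members fell against DMSO in limma, where 0.349% of all genes fell, and none rose, where 0.475% did. At an unadjusted p under 0.05, 8 members were lower (17.4%) and none higher, against 5% and 8.25% of all genes. The median difference of the members was -0.08, which is 5.33% lower, and that of all genes 0.02. Both PF-03084014 arrays lay below both DMSO arrays for 23 members (50%), against 19.7% of all genes, and above them for 3 (6.52%), against 26.9%. The 8 were CDC45, ORC1, CDC6, GMNN, POLD2, POLD3, RFC2 and RFC3. POLD2 had the largest difference, -0.48 ± 0.10 (adjusted p = 0.131), and its PF-03084014 arrays, at 1996 and 1947, lay below both DMSO arrays, at 2749 and 2764. The next were RFC2 at -0.24 ± 0.058 (adjusted p = 0.168) and CDC6 at -0.22 ± 0.071 (adjusted p = 0.286). ORC1 differed by -0.19 ± 0.065, CDC45 by -0.13 ± 0.049 and GMNN by -0.15 ± 0.037. Without the first or the second combination array, which changes the pooled spread, RFC2 alone was called (adjusted p = 0.045 and 0.0454).

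With dexamethasone alone, none of the 46 fell against DMSO in limma, where 0.0152% of all genes fell, and none rose, where 0.086% did. At an unadjusted p under 0.05, 12 members were lower (26.1%), against 3.49% of all genes, and 1 was higher (2.17%), against 5.46%. The median difference of the members was -0.10, which is 6.69% lower, and that of all genes was 0.01. Both dexamethasone arrays lay below both DMSO arrays for 29 members (63%), against 17.7% of all genes, and above them for 2 (4.35%), against 24.9%. The 12 were MCM2, MCM4, CDC45, GINS1, CDC6, MCM10, POLD3, RFC2, RFC3, RFC5, LIG1 and RRM2. MCM10 differed by -0.24 ± 0.060 (adjusted p = 0.321), LIG1 by -0.23 ± 0.072 (adjusted p = 0.443) and CDC45 by -0.23 ± 0.049 (adjusted p = 0.277). The 1 higher gene was ORC5, with 0.21 ± 0.081 (adjusted p = 0.546). Both comparisons share the DMSO arrays, and the first DMSO array was lower than the second for 39 of the 46 members.

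**Figure D4:**
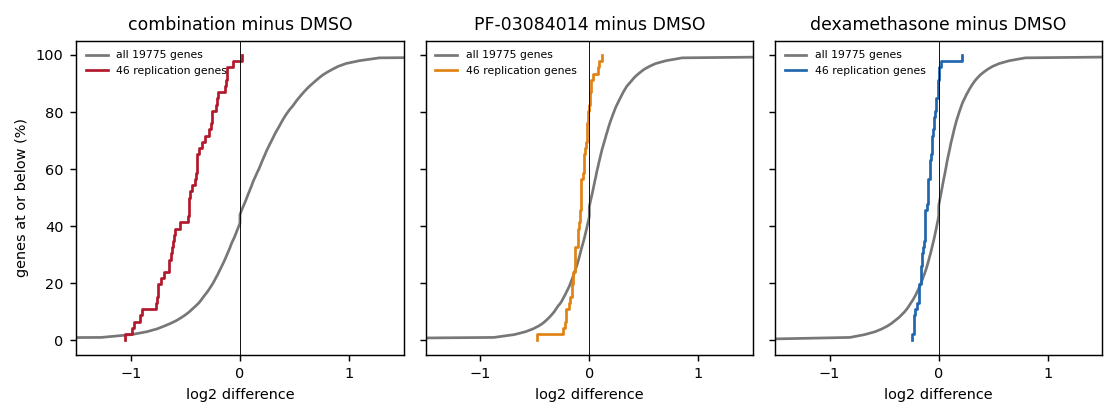
Cumulative share of genes against log2 difference from DMSO for the combination, PF-03084014 and dexamethasone, for the 46 members and all 19775 genes. The members' curve for the combination is shifted to the left, with a median of -0.46 against 0.06, and their curves for the single compounds are shifted by about 0.1.

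The combination was then set against each compound. Against PF-03084014 alone, 20 of the 46 members fell (43.5%), against 1.77% of all genes, and none rose, against 1.1%. The median difference was -0.39, and that of all genes 0.03. The largest was that of POLD1, -0.83 ± 0.12 (adjusted p = 0.0358), followed by ORC1 with -0.80 ± 0.065 (adjusted p = 0.0143). Against dexamethasone alone, 24 members fell (52.2%), against 3.99% of all genes, and none rose, against 3.27%. The median was -0.33, and that of all genes 0.04. POLD2 had the largest of these differences, -0.91 ± 0.10 (adjusted p = 0.0165), and ORC1 differed by -0.87 ± 0.065 (adjusted p = 0.00843). Without the second combination array the counts were 20 (against 1.58% of all genes) and 21 (against 2.99%), and without the first they were 33 each (against 9.86% and 13.9%). The count against PF-03084014 was 0 without any 1 of the 4 single-compound arrays and 4 without either DMSO array. The count against dexamethasone was 0 without either dexamethasone array, 9 without either PF-03084014 array and 14 without either DMSO array.

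The departure from additivity asked whether the combination lay below the sum of the single log2 differences. The interaction estimate was negative for all 46 members, against 51.3% of all genes, with a median of -0.28 for members and 0 for all genes. At an unadjusted p under 0.05, 26 members were negative (56.5%) and none positive, against 5.24% and 3.85% of all genes. No member passed the adjusted threshold in limma, and neither did any of the 19775 genes (0%). The lowest adjusted p of a member was that of RFC5, 0.302, with an interaction of -0.51 ± 0.050. ORC1 had -0.68 ± 0.092 (adjusted p = 0.312) and POLD1 -0.61 ± 0.17 (adjusted p = 0.428). For POLD2 the interaction was -0.43 ± 0.15 (adjusted p = 0.501). Without the first combination array 18 members were called negative, against 3.04% of all genes. Without the second, no gene was called.

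The layout also lets the 4 arrays with a compound be set against the 4 without it. For dexamethasone, averaged over both backgrounds, 19 members fell (41.3%), against 1.8% of all genes, and none rose, against 1.53%. The 4 dexamethasone-treated arrays lay below all 4 others for 18 members (39.1%), against 3.41% of all genes. For PF-03084014, 22 members fell on average (47.8%), against 4.63% of all genes, and none rose, against 5.13%. Its 4 arrays lay below the 4 others for 7 members (15.2%), against 7.07% of all genes. No p is given for these counts, since arrays that do not overlap fix the p of such a split. The averages join unlike parts, since the members' median for dexamethasone was -0.39 beside PF-03084014 and -0.10 without it, and for PF-03084014 it was -0.33 beside dexamethasone and -0.08 without it. Without the second combination array, 22 members fell and 1, ORC5, rose for dexamethasone (against 2.34% and 2.18% of all genes), and 22 fell for PF-03084014 (against 5.41%). The dexamethasone count was 33 without the first combination array (against 6.28% of all genes), 1 without either DMSO array and 0 without any 1 of the 4 single-compound arrays, and the PF-03084014 count lay between 4 and 13 without any 1 of the arrays other than the combination's. The test of any difference among the 4 groups, limma's moderated F, called 24 of the 46 members (52.2%), against 7.02% of all genes. It called 24 without the second combination array (against 6.55%) and 0 to 7 without any 1 of those 6 arrays.

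The 2 combination arrays did not depart equally. The second was below the first for 36 of 46 members (78.3%), against 42.4% of all genes. The median standard deviation between replicates of the members was 0.093 log2 units between the combination arrays and 0.019 to 0.038 within the remaining groups. Over all genes it was 0.197 between the combination arrays and 0.080 to 0.096 within the remaining groups, so the wider spread was not particular to the members. The fit uses 1 spread for all groups, so the standard errors of combination contrasts tend to be too small. Those of the single compounds against DMSO tend to be too large. Counts for the combination and for the single compounds are therefore not on an equal footing.

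Other probe sets bear on the size of these values, and were tested in a separate limma fit of all 41097 probe sets, adjusted over them. Single probe sets served 22 members, and 24 members had several, which gave 38 probe sets besides those used. Of these 38, 17 fell with the combination and none rose, while 3.98% of all probe sets fell. Without the second combination array 16 of the 38 fell, against 2.93%. Their median difference was -0.70. Among the 32 with a mean intensity of at least 100, 28 were negative, and 20 were further from 0 than the probe set used, with the same sign. The brightest probe set of MCM4 gave -0.37, its other probe sets above 100 gave -1.05, -0.75 and -1.68, and one near the floor, at a mean of 19.4, gave -0.19. For CDT1 they gave -0.40 and -1.28, for MCM7 -0.26 and -0.63, and for RRM1 -0.26 and -0.71. The brightest probe set of WDHD1 gave -0.40 and was not called. Its dimmer ones gave -0.88 and -0.86 and were called (adjusted p = 0.0108 and 0.0121 in that fit). Several disagreed in sign. A dimmer probe set of GINS2 gave 0.17 and another -1.16, and for RFC5 the other probe sets gave 0.075 and -0.74. For RFC1 a probe set near the floor gave 0.19, and for RPA1, whose brightest probe set gave 0.023, the others gave -0.090 and -0.048. For POLD3 the only other probe set gave 0.86, and for TIMELESS 0.11, both at mean intensities just above 100 (111 and 108).

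**Figure D5:**
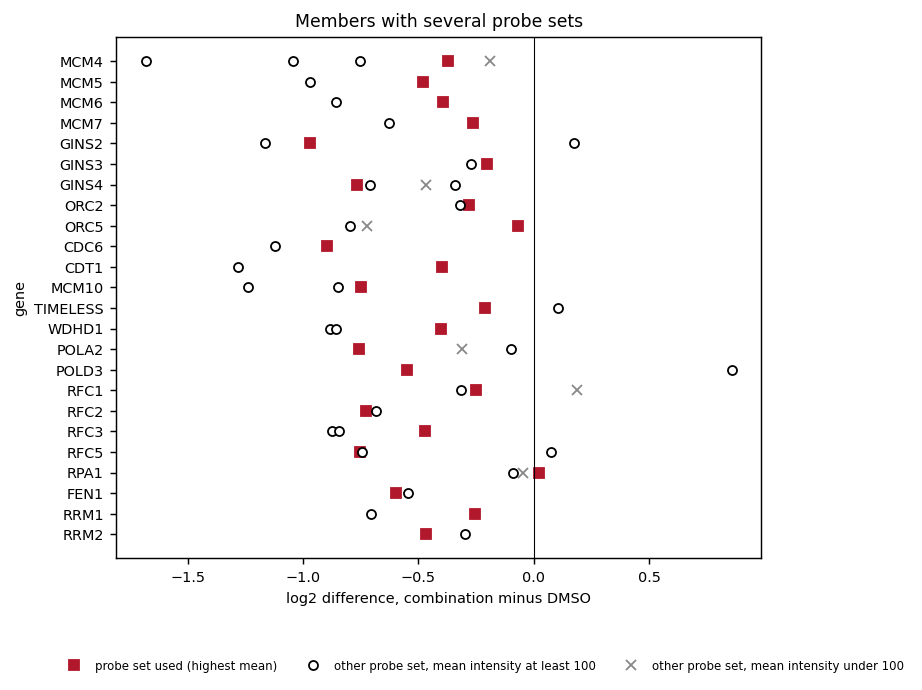
Log2 difference of the combination from DMSO on the x axis for every probe set of the 24 members that have several, with the brightest probe set, used in the text, marked apart from the others. Most of the other probe sets lie to the left of 0, and GINS2, RFC5, POLD3, TIMELESS, RFC1 and RPA1 have points on both sides of it.

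Genes with and without an E2F match were compared by their calls for the combination. A match lay in 10 of the 23 promoters of members that fell (43.5%) and in 7 of the 17 of members that were not called (41.2%). CCAAT lay in 52.2% and 64.7% of the same promoters. The shares are given as counts over members, with no test.

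Beyond the 46, 43 further genes of replication, licensing control and chromatin assembly were analysed. With the combination, 21 of the 43 fell (48.8%, against 5.54% of all genes), with a median of -0.32. A rise was called for 1 (2.33%), a smaller share than the 6.43% of all genes. Without the second combination array 16 fell, against 5.08% of all genes, and none rose. None was called in limma for PF-03084014 or dexamethasone alone, and none was higher at an unadjusted p under 0.05. At that p, 2 were lower with PF-03084014 (4.65%, against 5% of all genes) and 11 with dexamethasone (25.6%, against 3.49%). ASF1B, a histone chaperone that works behind the fork, read 1904 and 1938 in the combination arrays, 3177 and 3016 with PF-03084014, 2596 and 2455 with dexamethasone and 2925 and 2873 with DMSO, and it differed by -0.59 ± 0.045 (adjusted p = 0.00372). DSCC1, part of an alternative clamp loader that acts in cohesion, read 1948 and 1968 in the combination arrays, 2815 and 2975 with PF-03084014, 2517 and 2488 with dexamethasone and 2896 and 2802 with DMSO (-0.54 ± 0.040, adjusted p = 0.00367). DTL, the ubiquitin ligase adaptor that marks CDT1 for destruction in S phase, read 2150.1 and 1965 in the combination arrays, 3570.2 and 3710.3 with PF-03084014, 3106 and 3170.1 with dexamethasone and 3664 and 4091 with DMSO (-0.91 ± 0.071, adjusted p = 0.00388). These 3 were named for the smallest F p of the 43. In all 3 the dexamethasone arrays lay below both DMSO arrays, as for 25 of the 43 (58.1%) and 17.7% of all genes. The 1 gene that rose was RRM2B, the p53-induced ribonucleotide reductase subunit, with 0.50 ± 0.10 (adjusted p = 0.0407), named after its value was seen.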

How the data were processed

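The authors deposited linear intensities of 54675 probe sets on each of 8 Affymetrix arrays. Per the labels' protocols, 200 ng of total RNA was amplified from the 3′ end into biotinylated cRNA. The sources used here do not give the summarisation, background correction or normalization. Intensities under 16 were set to 16 and log2 values were computed here. The 41097 probe sets with 1 gene in the platform annotation were used, 1801 with several genes and 11777 with none were left out, and each of 19775 genes was taken from its brightest probe set with no filter on dim genes. Brightness over background and the number of arrays limit the precision, and the median standard error of a group difference was 0.177 log2 units.

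Adjusted p-values of genes came from 1 fit in limma 3.58.1 (R 4.3.3) of 4 group means over 8 arrays, with eBayes and an intensity trend, 4 residual and 1.35 prior degrees of freedom, and Benjamini-Hochberg adjustment over all genes. Leaving out an array refits the same model, and all probe sets were fitted once more in the same way, adjusted over probe sets. The script was tested on simulated data. The members, lists and tests were chosen with earlier results of these data known. Any member could be named. Array values were given for the 3 largest changes of each role group among members called in a contrast, and for the member with the smallest F p and the brightest member of each role group. ORC5 and RPA1 were added after their values were seen. Alternatives covered scaling, floor, dim genes, probe set choice, variance model, replicate block and arrays left out. The second brightest probe set was an alternative chosen after seeing the data.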

Additional observations from a re-analysis of the deposited data

Results flagged for a closer look

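In 2 members the PF-03084014 difference ran in opposite directions without and with dexamethasone, array by array. Both MCM5 arrays with PF-03084014 alone (5819.7 and 5683) lay above both DMSO arrays (5599 and 5629), and both combination arrays (4239 and 3820.4) lay below both dexamethasone arrays (5335 and 5269). The interaction was -0.4325 log2 units, with an adjusted p of 0.315 in limma. Both GINS3 arrays with PF-03084014 alone (1983 and 1919) lay above both DMSO arrays (1853 and 1758), and both combination arrays (1701 and 1445) lay below both dexamethasone arrays (1800 and 1791). The interaction was -0.3077, with an adjusted p of 0.537. Neither passed the test of the difference itself. The pattern was looked for in the members only, so its share over all genes is not known. Both PF-03084014 arrays lay above both DMSO arrays for 26.9% of all genes.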

How the results depend on the processing

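The fall of the members with the combination kept its direction: their median difference from DMSO was negative under every alternative run. It was -0.592 with arrays shifted to 1 common median, -0.505 with the mean of all probe sets, -0.574 with the second brightest probe set and -0.505 to -0.428 with 1 array left out. Of the 27 called members, 15 to 27 remained called in the alternatives run on all groups, and all of those tested stayed negative except with the mean of all probe sets (26), without _x_at and _s_at probe sets (22 of 23) and with the second brightest probe set (24). Shifting arrays to a common median moved the median of all genes from 0.063 to -0.0247 for the combination and to -0.138 for the interaction. With only the groups compared, which leaves 2 residual degrees of freedom, 0 members were called for the combination against DMSO, PF-03084014 or dexamethasone.

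The PF-03084014 count, 0, was 1 with a mean intensity of at least 100, 2 with array weights, 2 with quantile normalization without combination replicate 2, and 0 to 1 with 1 array left out, when its median ran from -0.126 to -0.0262. The dexamethasone count was 0 throughout, with a median of -0.129 to -0.0771 with 1 array left out. The combination count, 27, was 15 to 36 with 1 array left out. Against PF-03084014, the count of 20 was 1 with a common median, 31 with a mean of at least 100, 12 without _x_at and _s_at probe sets, 10 without the trend, 1 with array weights, 12 with the second brightest probe set and 0 to 33 with 1 array left out, and the median was -0.521 with a common median, -0.441 with the mean of probe sets, -0.447 with the second brightest and -0.438 to -0.345 with 1 array left out. Against dexamethasone, the count of 24 was 2 with a common median, 11 with array weights, 15 with the second brightest probe set and 0 to 33 with 1 array left out, and the median was -0.482 with a common median, -0.4 with the mean of probe sets, -0.42 with the second brightest and -0.407 to -0.302 with 1 array left out. The interaction count was 0 to 18 with 1 array left out, and its median was -0.238 with quantile normalization, -0.43 with a common median, -0.329 with the second brightest probe set, -0.208 with quantile normalization without combination replicate 2 and -0.339 to -0.228 with 1 array left out. The average dexamethasone count, 19, was 0 with a common median, 12 without _x_at and _s_at probe sets, 8 without the trend, 10 with the second brightest probe set and 0 to 33 with 1 array left out, with medians of -0.303 and -0.28 to -0.231 for the first and last of these. The average PF-03084014 count, 22, was 3 with a common median, 14 with the second brightest probe set and 4 to 31 with 1 array left out, with medians of -0.274, -0.245 and -0.233 to -0.184 in that order. The F count, 24, was 2 with a common median and 0 to 33 with 1 array left out. The cause was not tested. These counts are given without the share of all genes called under each alternative. A general change in calls is therefore not separated from one particular to the members.

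Single members changed sign as follows. POLD3 with dexamethasone became 0.0574 with the mean of probe sets and 0.272 with the second brightest, and with the combination 0.155 and 0.859. For the combination, GINS2 was 0.174 and TIMELESS 0.106 both without _x_at and _s_at probe sets and with the second brightest, RFC1 was 0.188 without _x_at and _s_at probe sets, and RFC5 was 0.075 with the second brightest. ORC5 was 0.0547 with quantile normalization without combination replicate 2 and -0.188 to 0.0537 with 1 array left out. RPA1 was -0.108 with a common median, -0.0386 with the mean of probe sets, -0.0904 with the second brightest, and -0.0145 to 0.0597 with 1 array left out.

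With the replicate number as a block, the counts were 0 for PF-03084014, 0 for dexamethasone, 26 for the combination, 18 and 24 against each compound, 0 for the interaction, 15 and 21 for the averages and 23 for F. The correlations of replicate deviations between groups were -0.0113 to 0.0799. They were taken over all genes, dim ones included, so they cannot settle whether arrays of the same number were prepared together.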
